A study of Zea mays with 8 samples.

Results

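The 6 genes described here form a group labelled oil synthesis enzymes and WRINKLED1 regulators. They are the enzyme genes ACC1 (GRMZM5G858094), fad2 (GRMZM2G064701), fad7 (GRMZM2G128971) and dgat1-2 (GRMZM2G169089), and the regulator genes wri1a (GRMZM2G124524) and wri1b (GRMZM2G174834). They were taken by gene ID from the 39475 genes of the deposited tables. All 6 passed the filter on low counts that left 19058 tested genes. The reference table names wri1a EREB85 and wri1b EREB20. RNA sequencing had measured mechanically peeled aleurone, the outermost cells of the endosperm, and starchy endosperm, the storage tissue inside it. All kernels were of the maize inbred line B73, with no treatment named, and were taken 18 or 22 days after pollination (DAP). The 4 groups, aleurone and starchy endosperm at either age, had 2 libraries each, numbered replicates 1 and 2 and described as biological replicates from a pair of greenhouse plants.

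Seed oil is triacylglycerol, made from fatty acids that are built in the plastid and assembled onto glycerol in the endoplasmic reticulum. Acetyl-CoA carboxylase makes malonyl-CoA, the building block of fatty acids, desaturases add double bonds, and diacylglycerol acyltransferase adds the last fatty acid. WRINKLED1 proteins are transcription factors of the AP2 family that switch on glycolysis and fatty acid synthesis genes in seeds. In the maize kernel, oil is stored mainly in the embryo and, within the endosperm, in the aleurone.

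Total counts per library ranged from 2473036 to 11529170. The replicates of starchy endosperm at 22 DAP were the least alike. Their log2 scaled counts had a Pearson r of 0.663 over the 19058 tested genes, against 0.789 to 0.841 between replicates of the other groups. Replicate 2 of that group held 9343 detected genes, the fewest, and replicate 1 held 16784. In every group replicate 2 had the higher total count and fewer detected genes than replicate 1. The tissue labels were checked against 7 aleurone markers, which summed to 7481 to 30201 TPM (a length-corrected share of all transcripts) in aleurone and to 38.1 to 49.9 TPM in starchy endosperm. The marker c1 was at 0 in all libraries, and vp1 was at 0 in all starchy endosperm libraries. A list of 30 zein and other starchy endosperm markers held 592822 to 627720 TPM in starchy endosperm and 114771 to 145470 TPM in aleurone. Among 7 embryo markers lec1 and wox5B were at 0 throughout and kn1 reached at most 0.34 TPM. In aleurone emb5 had 1.85 to 4.48 TPM, against at most 1.00 TPM in starchy endosperm. For glb2 these levels were 1.00 to 37.2 TPM and at most 1.33 TPM. The marker wox2A had 0.42 to 4.85 TPM over both tissues. The globulin gene glb1, which is on that list, stood at 236 to 1747 TPM in aleurone and at most 2.75 TPM in starchy endosperm. Of 3 pericarp and maternal tissue markers, p1 was at 0 in all libraries. The maternal tissue genes ZAG1 and zag2 summed to 16.2 to 56.5 TPM in aleurone and were at 0 in starchy endosperm. The part of such neighbouring tissues in the results below was not tested.

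All 6 genes were called higher in aleurone than in starchy endosperm over both ages, as were 5.95% of tested genes, but only 2 of them at 18 DAP (1.21%) and 3 at 22 DAP (1.19%). In aleurone 4 of them had lower TPM in both libraries at 22 DAP than in both at 18 DAP, as had 18.5% of tested genes, and none was called. On scaled counts 4 were lower too (18.2% of tested genes), but with ACC1 in place of fad2. ACC1 was the member with the steadiest level in starchy endosperm, and dgat1-2 was the only member with higher TPM there in both libraries at 22 DAP than in both at 18 DAP, as had 6.52% of tested genes.

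**Figure D1:**
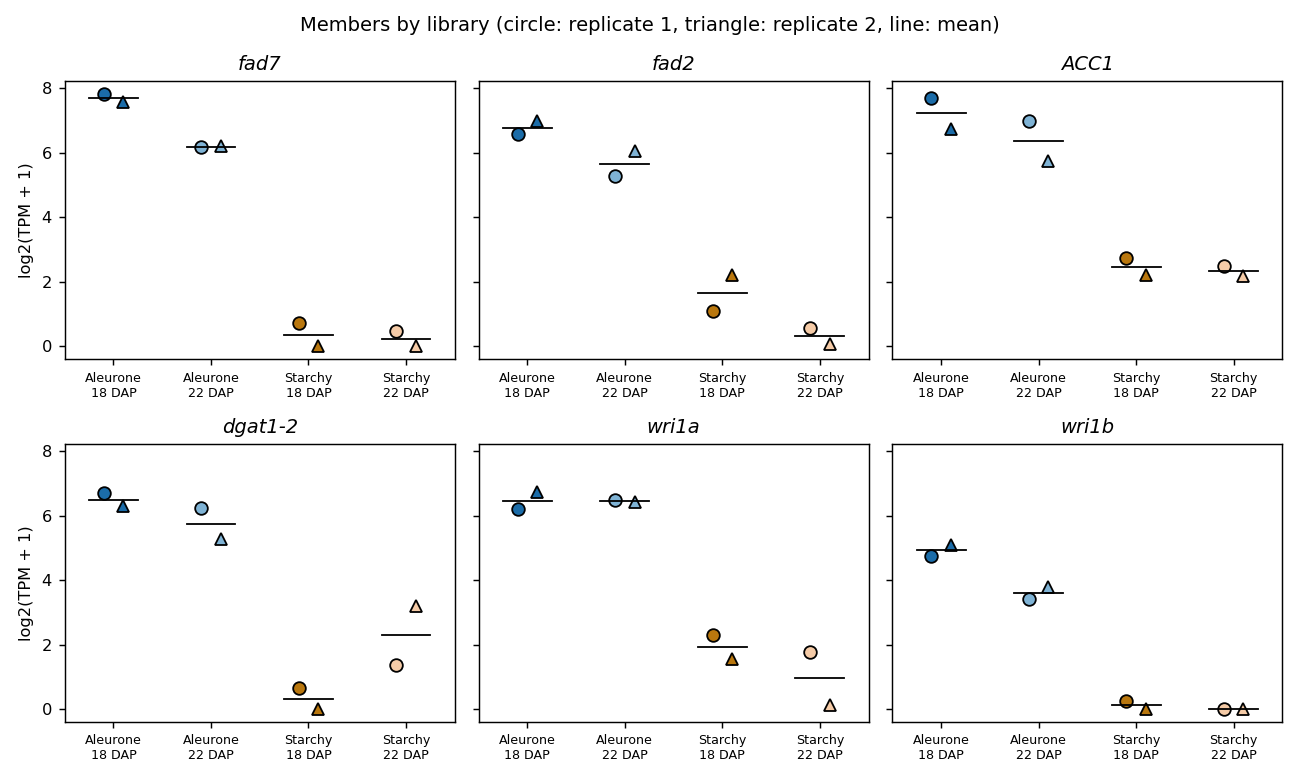
Level of each of the 6 genes in each of the 8 libraries, as log2(TPM + 1), with the group mean as a line. Aleurone libraries lie above the starchy endosperm libraries in every panel, and dgat1-2 is the panel where starchy endosperm at 22 DAP lies above 18 DAP.

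The comparison of tissues asked where in the endosperm the oil genes are expressed. ACC1 encodes acetyl-CoA carboxylase, the enzyme of the first committed step of fatty acid synthesis. In aleurone it had 209 and 107 TPM at 18 DAP and 127 and 52.9 TPM at 22 DAP (replicates 1 and 2). In starchy endosperm it had 5.65 and 3.59 TPM at 18 DAP and 4.68 and 3.56 TPM at 22 DAP. The tissues did not overlap at either age, and replicate 1 was above replicate 2 in all 4 groups. Such a lack of overlap, also given for genes below, held for 79.8% of tested genes at 18 DAP and 77.2% at 22 DAP. In counts scaled by TMM, the trimmed mean of M values, aleurone was higher by a fitted log2 fold change of 2.95 (SE 0.49) at 18 DAP, with an adjusted p of 0.0182 (edgeR quasi-likelihood test, Benjamini-Hochberg). At 22 DAP the log2 fold change was 2.41 (SE 0.48, edgeR adjusted p = 0.0469). The starchy endosperm level of ACC1 was 2.92% of the aleurone TPM at 18 DAP and 4.59% at 22 DAP. Over the aleurone markers detected in aleurone the same share ranged at 18 DAP from 0 for vp1 to 21.9% for Nkd1, with 0.0663% for plt1. At 22 DAP it ranged from 0 for ocl1 and vp1 to 16.0% for Nkd2, with 0.194% for plt1. Both values of ACC1 lay above the level of 65.1% and 66.3% of the tested genes in the same tissue. The median TPM of all tested genes was also lower there. It was 2.36 against 14.6 in aleurone at 18 DAP, and 1.655 against 13.0 at 22 DAP. In TMM-scaled counts ACC1 was 8.32-fold higher in aleurone at 18 DAP and 5.59-fold at 22 DAP.

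The desaturase gene fad2 encodes the enzyme that turns oleate into linoleate in the endoplasmic reticulum. It had 94.2 and 126 TPM in aleurone at 18 DAP and 37.6 and 66.1 TPM at 22 DAP. In starchy endosperm it had 1.13 and 3.62 TPM at 18 DAP and 0.47 and 0.06 TPM at 22 DAP. The tissues did not overlap, and starchy endosperm at 18 DAP rested mostly on replicate 2, which held 103 of the group's 112 counts. The fitted log2 fold change was 3.42 (SE 0.93) at 18 DAP, which missed the threshold (edgeR adjusted p = 0.113), and 6.06 (SE 1.16) at 22 DAP, which passed it (edgeR adjusted p = 0.0406). The latter was 7.97 without replicate 1 of starchy endosperm at 22 DAP and 4.78 without replicate 2. The interaction, which asks whether the difference of tissues depends on age, was 2.64 on the log2 scale (edgeR unadjusted p = 0.0899, adjusted p = 1), so a larger difference at 22 DAP was not shown.

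The desaturase gene fad7, for the plastid enzyme that turns linoleate into linolenate, had the highest mean TPM of the 6 genes in aleurone at 18 DAP. In TPM its libraries there overlapped those of ACC1. Its aleurone libraries had 228 and 190 TPM at 18 DAP and 71.6 and 72.5 TPM at 22 DAP. In starchy endosperm 1 library of each age held reads, at 0.64 and 0.40 TPM, and the replicate 2 libraries had none. The ratio of TMM-scaled counts, 1764 in aleurone against 2 in starchy endosperm, was 467 at 18 DAP, with a 95% counting interval from 129 to 3861 (Clopper-Pearson). At 22 DAP it was 304, from 54.4 to 12022, with 884 counts against 1. Aleurone was higher at both ages (edgeR adjusted p = 0.0233 at 18 DAP and 0.0439 at 22 DAP). With the replicate number as a block, the call at 22 DAP was lost (edgeR adjusted p = 0.0523).

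The acyltransferase gene dgat1-2 encodes diacylglycerol acyltransferase, and natural variation in it is known to affect maize kernel oil. It had 103 and 77.1 TPM in aleurone at 18 DAP and 74.9 and 37.4 TPM at 22 DAP. In starchy endosperm it had 0.57 and 0 TPM at 18 DAP and 1.60 and 8.24 TPM at 22 DAP. The tissues did not overlap. The mean starchy endosperm level was 0.316% of the mean aleurone TPM at 18 DAP and 8.76% at 22 DAP. In TMM-scaled counts aleurone was 164-fold higher at 18 DAP and 2.18-fold at 22 DAP. The fitted log2 fold change between tissues was 6.67 (SE 1.47) at 18 DAP and 1.58 (SE 1.10) at 22 DAP, and neither passed the threshold (edgeR adjusted p = 0.0592 and 0.496). At 18 DAP it was 5.18 without replicate 2 of starchy endosperm, and without replicate 1 that group had no reads. At 22 DAP it was 0.92 without replicate 1 of starchy endosperm and 2.97 without replicate 2.

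Of the regulators, wri1a was the higher gene in all 8 libraries. It had 72.1 and 105 TPM in aleurone at 18 DAP and 87.9 and 84.8 TPM at 22 DAP. In starchy endosperm it had 3.93 and 1.94 TPM at 18 DAP and 2.43 and 0.09 TPM at 22 DAP, the last resting on 1 count. The tissues did not overlap. The fitted log2 fold change was 2.89 (SE 1.14) at 18 DAP and 4.27 (SE 1.25) at 22 DAP, and neither passed the threshold in the edgeR test (adjusted p = 0.273 and 0.155). At 22 DAP it was 8.17 without replicate 1 of starchy endosperm and 3.11 without replicate 2.

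The second regulator, wri1b, had 26.1 and 33.4 TPM in aleurone at 18 DAP and 9.71 and 12.7 TPM at 22 DAP. In the 4 starchy endosperm libraries 1 read was counted, in replicate 1 at 18 DAP (0.19 TPM). The ratio of TMM-scaled counts at 18 DAP was 189, with a counting interval from 33.7 to 7489 (357 counts against 1). At 22 DAP, with 152 counts against 0, aleurone was at least 17.4-fold higher when set against a floor of 3 counts over the group, and the lower limit of the Clopper-Pearson interval was 14.0. The edgeR adjusted p was 0.169 at 18 DAP and 0.178 at 22 DAP, so neither difference was called. In TPM the tissues did not overlap, as for 79.8% of tested genes at 18 DAP and 77.2% at 22 DAP.

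In all, 2 of the 6 genes were called higher in aleurone at 18 DAP (fad7 and ACC1), where 2.07% of all tested genes were called, 1.21% higher and 0.866% lower in aleurone. With the replicate block 2 members were called, and the calls over all genes went from 395 to 808. At 22 DAP 3 of 6 were called (fad7, fad2 and ACC1), against 1.69% of all tested genes, 1.19% higher and 0.504% lower. With the block 2 were called, and the calls over all genes went from 322 to 580. Averaging both ages, all 6 were called higher in aleurone, against 8.89% of all tested genes, 5.95% higher and 2.94% lower. The edgeR adjusted p of this average was 0.00262 for fad7, 0.00652 for fad2, 0.00236 for ACC1, 0.0272 for dgat1-2, 0.0346 for wri1a and 0.0285 for wri1b. For wri1a it was 0.0531 with the replicate block. The fitted log2 fold change of the average was 4.74 (SE 0.74) for fad2, 2.68 (SE 0.34) for ACC1, 4.12 (SE 0.91) for dgat1-2 and 3.58 (SE 0.84) for wri1a. The median fitted log2 fold change of the 6 was 4.43, against 0.77 over all tested genes. TPM of both aleurone libraries was above both starchy endosperm libraries for all 6 genes at both ages, but so it was for 79.8% of tested genes at 18 DAP and 77.2% at 22 DAP. In these bulk samples fewer cells of a type and less RNA per cell cannot be told apart.

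The number of calls at a single age rested on single libraries. Without any 1 of the 4 libraries at 18 DAP, 0 members were called at that age (edgeR adjusted p of 0.0643 to 0.179 for fad7 and of 0.0601 to 0.236 for ACC1), and without either starchy endosperm library at 22 DAP, or without both, all 6 were. Calls over all genes moved too, to 35 to 203 in the former fits and to 1458 to 1506 in the latter, or up to 7.90% of tested genes. At 22 DAP 0 were called without replicate 1 or 2 of aleurone at 18 DAP or replicate 2 of either tissue at 22 DAP, 1 without replicate 1 of aleurone at 22 DAP or without either starchy endosperm library at 18 DAP, and 5 without replicate 1 of starchy endosperm at 22 DAP. The last fit called 4815 genes, or 25.3%, and the others 119 to 270. In the average of ages, dgat1-2, wri1a and wri1b lost their calls without any 1 aleurone library. They also lost them without replicate 2 of starchy endosperm at 18 DAP, and wri1a alone without replicate 1 of that group. Calls over all genes fell in each of these fits. The calls of fad7, fad2 and ACC1 in that average held under all alternatives run.

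**Figure D2:**
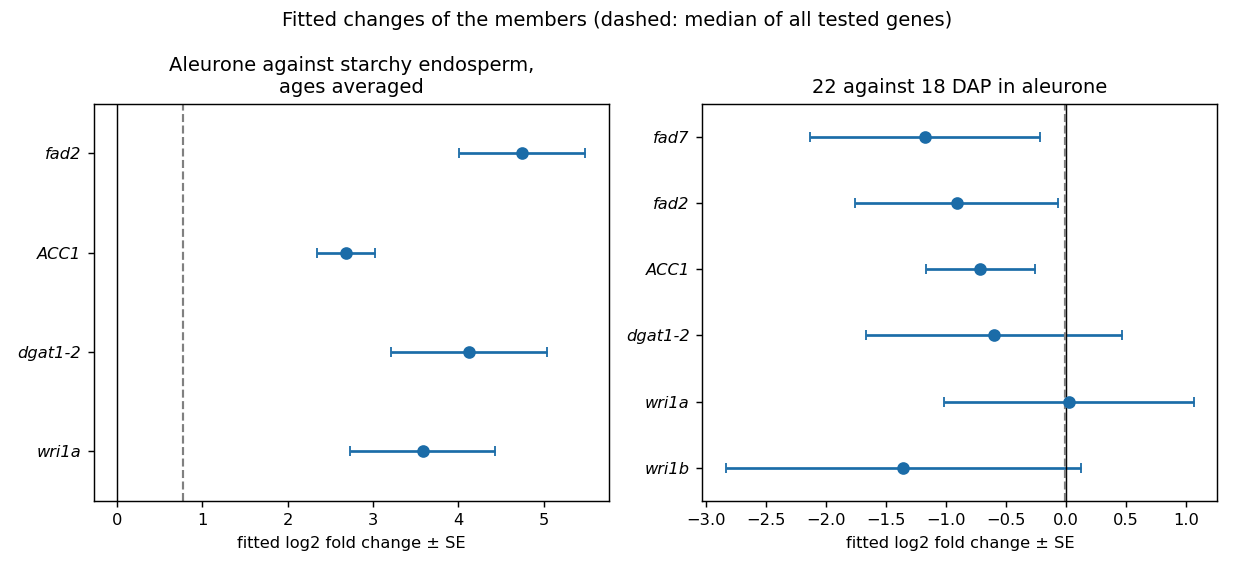
Fitted log2 fold changes with their SE for aleurone against starchy endosperm over both ages (left) and for 22 against 18 DAP in aleurone (right), with the median of all tested genes dashed. On the left fad7 and wri1b are not drawn, since they had 3 or fewer counts in each starchy endosperm group; on the right 5 of the 6 values lie below 0, and none of the 6 was called.

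The comparison of ages in aleurone asked how the oil genes change as the kernel fills. In mean TPM at 18 DAP the order in aleurone was fad7 (209 ± 26.7, SD, n = 2), ACC1 (158 ± 72.0), fad2 (110 ± 22.3), dgat1-2 (90.1 ± 18.5), wri1a (88.4 ± 23.1) and wri1b (29.7 ± 5.15). Libraries of neighbouring genes overlapped from fad7 down to wri1a, and wri1b lay below all the others. At 22 DAP the order was ACC1 (89.8 ± 52.1, SD, n = 2), wri1a (86.4 ± 2.19), fad7 (72.0 ± 0.658), dgat1-2 (56.2 ± 26.5), fad2 (51.8 ± 20.2) and wri1b (11.2 ± 2.09). Here ACC1 and wri1a overlapped, as did fad7, dgat1-2 and fad2 with their neighbours, while wri1a lay above fad7 and wri1b below all the others. The aleurone mean of fad7 was above that of 97.1% of tested genes at 18 DAP and 89.6% at 22 DAP. For wri1b the shares were 71.1% and 45.8%, while for wri1a they were 91.3% and 91.5%.

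The level of fad7 at 22 DAP was 0.314 of that at 18 DAP between the replicate 1 libraries and 0.382 between the replicate 2 libraries. For wri1b these TPM ratios were 0.372 and 0.380, for fad2 0.399 and 0.526, for ACC1 0.606 and 0.494, and for dgat1-2 0.726 and 0.485. For wri1a they were 1.22 and 0.810, on either side of no change. Both libraries at 22 DAP were below both at 18 DAP for 4 genes, fad7, fad2, dgat1-2 and wri1b, which also held for 18.5% of tested genes. Both were above for 0 members and for 11.4% of tested genes. On TMM-scaled counts fad2 overlapped, with 88.6 CPM (counts per scaled library size) in replicate 2 at 22 DAP against 85.4 CPM in replicate 1 at 18 DAP. On that scale ACC1 did not overlap, with 689 and 463 CPM at 18 DAP against 446 and 257 CPM at 22 DAP. So 4 genes were lower in both libraries here too, with ACC1 in place of fad2, as were 18.2% of tested genes. Marker lists were also compared between the ages in aleurone. The aleurone markers summed to 15502 and 30201 TPM at 18 DAP and 7481 and 18791 TPM at 22 DAP, so the ages overlapped. Most of each sum was plt1, with 14636 and 28034 TPM at 18 DAP and 6875 and 16977 TPM at 22 DAP. Nkd1 went from 73.7 and 74.9 to 101 and 156 TPM, and Nkd2 from 37.2 and 32.4 to 49.4 and 63.6 TPM. The markers per-1, vp1 and ocl1 overlapped between the ages, and c1 was at 0. The starchy endosperm markers summed to 114771 and 117663 TPM at 18 DAP and 138627 and 145470 TPM at 22 DAP. The maternal markers ZAG1 and zag2 summed to 18.0 and 16.2 TPM at 18 DAP and 56.5 and 39.6 TPM at 22 DAP, with p1 at 0. The embryo markers, mostly glb1, summed to 473 and 1761 TPM at 18 DAP and 248 and 1312 TPM at 22 DAP, so the ages overlapped. Among them glb2 went from 1.00 and 4.21 to 7.51 and 37.2 TPM, and emb5 and wox2A overlapped. The part of these marker differences in the age differences was not tested.

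None of these differences passed the test. The fitted log2 changes from 18 to 22 DAP were -1.18 (SE 0.96) for fad7, -0.91 (SE 0.84) for fad2, -0.71 (SE 0.45) for ACC1, -0.60 (SE 1.07) for dgat1-2, 0.03 (SE 1.04) for wri1a and -1.36 (SE 1.48) for wri1b, each with an edgeR adjusted p of 1. The median of the 6 was -0.81, against -0.01 over all tested genes. The edgeR test called 0 of 6 members and 0 of 19058 genes (0%) for age in aleurone. At an unadjusted p under 0.05 it held 0 members and 196 genes, or 1.03%. DESeq2 called 3 genes, 0 of them members.

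The levels of both WRINKLED1 genes can be set side by side as shares. In aleurone wri1a made up 73.4% and 75.8% of the summed TPM of wri1a and wri1b at 18 DAP (replicates 1 and 2) and 90.1% and 87.0% at 22 DAP. The ratio of wri1a to wri1b went from 2.76 and 3.14 to 9.06 and 6.70. The ages did not overlap in this share. The difference was not tested, and neither gene was called for age.

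**Figure D3:**
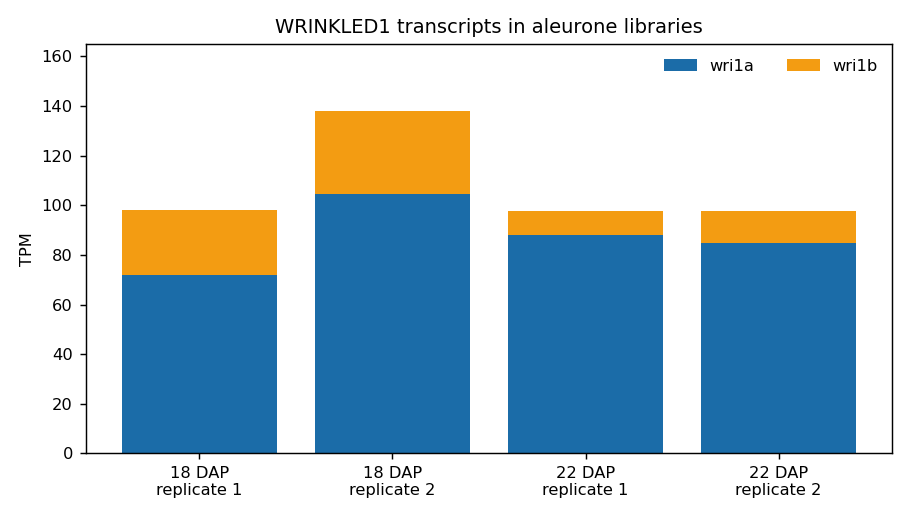
Stacked TPM of wri1a and wri1b in the 4 aleurone libraries. The wri1b segment is 26.1 and 33.4 TPM at 18 DAP and 9.71 and 12.7 TPM at 22 DAP, while wri1a stays between 72.1 and 105 TPM.

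In starchy endosperm the 6 genes did not share a direction between the ages. For dgat1-2, 9 and 123 counts at 22 DAP stood against 4 and 0 at 18 DAP, a fitted log2 change of 4.49 (SE 1.40). Its unadjusted p of 0.0108 ranked 101 among all tested genes and did not pass the adjustment. The change was 3.01 without replicate 2 at 18 DAP and 3.36 without replicate 2 at 22 DAP. Replicate 2 at 22 DAP, with 8.24 TPM, carried most of these reads. The deposited RSEM bounds on TPM, which cover read sampling, were 6.80 to 9.68 there and 0.748 to 2.78 in replicate 1, so the replicates differed by more than that. The 7 aleurone markers summed to 49.9 TPM in that library and to 44.3 TPM in the other library of that age. Among them Nkd2 had 14.2 against 3.91 TPM, per-1 3.53 against 2.12, plt1 23.0 against 23.4 and Nkd1 9.13 against 14.9, and vp1, ocl1 and c1 were at 0 in both. The oleosin genes summed to 7.06 TPM there, within the 4.89 to 10.8 TPM of the other starchy endosperm libraries. Carry-over from aleurone as a source of the dgat1-2 reads was not tested.

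For fad2 the fitted log2 change from 18 to 22 DAP was -3.55 (edgeR unadjusted p = 0.0112). Its 2 libraries at 22 DAP held 3.03 and 1 counts, below both at 18 DAP. The level of ACC1 differed little, with a log2 change of -0.17. For the other genes of the group, wri1a overlapped between the ages, and fad7 and wri1b held at most 2 counts in any library. Only dgat1-2 had both libraries higher at 22 DAP, which also held for 6.52% of tested genes. Only fad2 had both lower, which also held for 18.9%.

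The edgeR test called 0 of 6 members and 0 of all tested genes (0%) for age in starchy endosperm, with 2 members and 655 genes (3.44%) at an unadjusted p under 0.05. DESeq2 called 32 genes, 0 of them members. The interaction of tissue and age likewise gave 0 calls (0%), with 1 member and 390 genes (2.05%) at an unadjusted p under 0.05, and 7 genes called by DESeq2, 0 of them members. That member was dgat1-2, whose tissue difference was smaller at 22 DAP by -5.09 on the log2 scale (SE 1.75, edgeR unadjusted p = 0.0179, rank 80, adjusted p = 1). Without replicate 1 of starchy endosperm at 22 DAP, 3 members were called for age in that tissue: dgat1-2 at 5.42 (edgeR adjusted p = 0.0247), fad2 at -5.49 (0.0349) and wri1a at -5.24 (0.0203). The same fit called 3221 genes, or 16.9% of those tested. Without the same library the interaction was called for dgat1-2 at -6.02 (edgeR adjusted p = 0.0407) and wri1a at 5.26 (0.0359), beside 2188 genes or 11.5%. These then rest on the lone replicate 2 at 22 DAP, which is assumed to vary like the other groups.

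**Figure D4:**
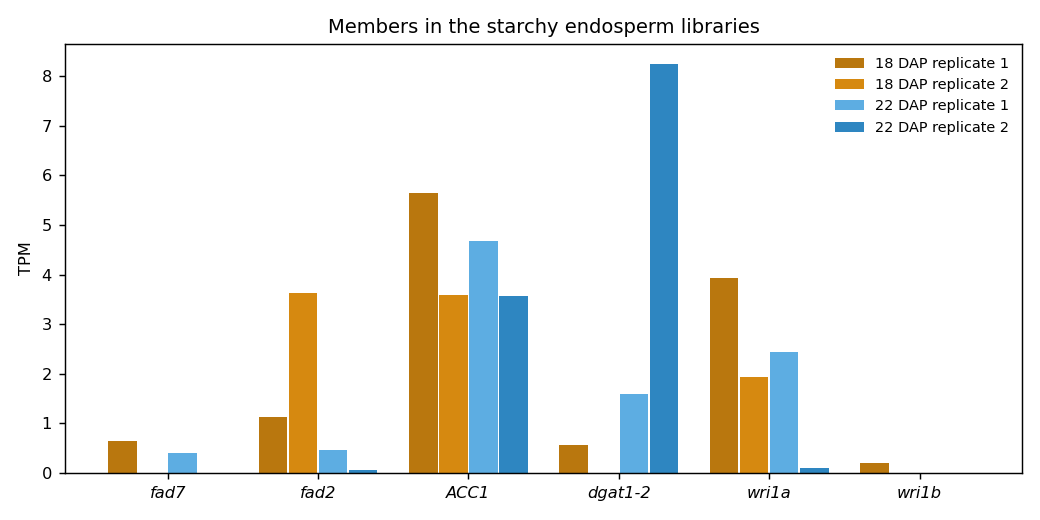
TPM of each of the 6 genes in the 4 starchy endosperm libraries. ACC1 has between 3.56 and 5.65 TPM in all 4, dgat1-2 is highest in replicate 2 at 22 DAP with 8.24 TPM, and fad7 and wri1b stay below 1 TPM.

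The deposited tables divide each gene over its annotated transcripts, and the division differed between replicates. For fad7 the 1014-base transcript T03 took 80.3% and 68.5% of the gene's aleurone TPM at 18 DAP and 73.5% and 47.6% at 22 DAP, and the 1999-base T01 took the rest. Since TPM corrects for length, this division enters the gene's level. The near-equal 71.6 and 72.5 TPM of fad7 at 22 DAP stood beside 36.3 and 62.9 CPM of TMM-scaled counts.

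For ACC1, T01 and T02 have 7461 and 7464 bases. In aleurone at 18 DAP T01 took 63.8% in replicate 1 and 0% in replicate 2, so the transcripts of ACC1 are reported as uncertain. Those of wri1a are too: T02 took 82.4% and 53.9% at 18 DAP and 82.8% and 40.4% at 22 DAP. For wri1b T01 took 45.3% and 51.5% at 18 DAP and 69.6% and 100% at 22 DAP, on counts of at most 126 per library. For fad2 T01 took at least 96.8% in aleurone, and dgat1-2 has a single transcript.

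**Figure D5:**
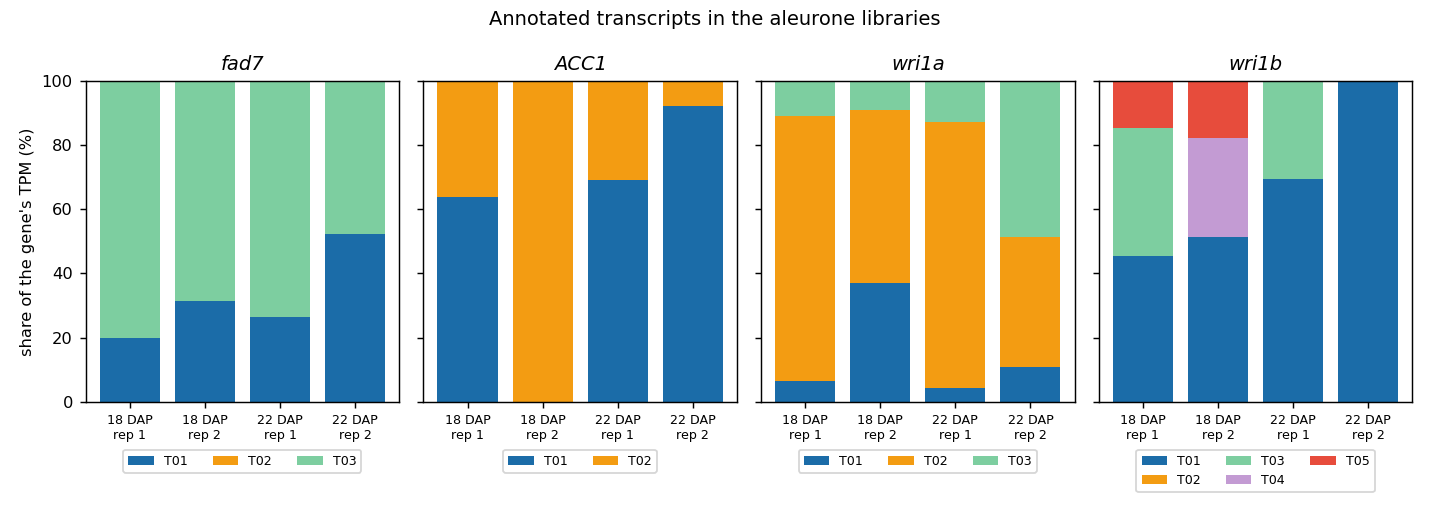
Share of each gene's TPM on its annotated transcripts in the 4 aleurone libraries, for 4 of the members. Replicates of 1 age differ: T01 of ACC1 takes 63.8% and 0% at 18 DAP.

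Other genes of oil synthesis were taken from a list. It held 10 genes found by name, of which 9 were tested and lec1, at 0 in all libraries, was not. Only FatB stood for fatty acid synthesis and only Agpat4 for triacylglycerol assembly. The rest were desaturases, plastid translocators and regulators. The name of a long-chain acyl-CoA synthetase matched several genes and was left out. The list therefore covers only part of the pathway. At 18 DAP 2 of the 9 were called higher in aleurone and 0 lower. These were ppt1, for a phosphoenolpyruvate/phosphate translocator that brings carbon into plastids, and vp1, for a regulator of seed maturation. At 22 DAP ppt1 alone was called, and with the replicate block vp1 was too (edgeR adjusted p = 0.0536 without the block and 0.0404 with it). Over both ages 2 were called higher (5.95% of all tested genes), 1 lower (2.94%) and 6 were not called, with a median fitted log2 fold change of -0.09 against 0.77 over all tested genes. The number called depends on the scaling: over both ages it was 5 of 9 with library sizes alone, 8 with limma on log2(TPM + 1) and 7 with limma on log2(TPM + 0.1), which called 36.7%, 76.6% and 69.3% of all tested genes. No test compares the list with the members.

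In aleurone ppt1 had 224 and 132 TPM at 18 DAP and 222 and 150 TPM at 22 DAP, and in starchy endosperm it had 5.68, 4.22, 3.39 and 4.50 TPM in the same order. The tissues did not overlap, and the fitted log2 fold change was 3.03 (SE 0.45, edgeR adjusted p = 0.0127) at 18 DAP and 3.60 (SE 0.46, edgeR adjusted p = 0.00830) at 22 DAP. The call at 18 DAP was lost without any 1 of the 4 libraries of that age (adjusted p of 0.0728 to 0.163). For vp1 aleurone had 34.1, 47.7, 23.5 and 61.9 TPM, and its call at 18 DAP was lost without any 1 of the same 4 libraries or replicate 2 of aleurone at 22 DAP (adjusted p of 0.0701 to 0.300).

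The gene called lower over both ages was gpt, for a glucose-6-phosphate/phosphate translocator, at -1.02 (SE 0.25, edgeR adjusted p = 0.0397). That direction holds for TMM-scaled counts and turns with library sizes alone (0.60) or with limma on log2(TPM + 1) (0.98), where aleurone was higher. Its TPM was 220 to 347 in aleurone and 112 to 159 in starchy endosperm. Its call was lost without any 1 aleurone library or any 1 starchy endosperm library at 18 DAP (adjusted p of 0.0510 to 0.165).

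Another gene that the reference table names FAD2 (GRMZM2G056252) had 43.2 and 105 TPM in aleurone at 18 DAP and 43.8 and 121 TPM at 22 DAP. In starchy endosperm it had 18.2 and 48.3 TPM at 18 DAP and 13.9 and 35.9 TPM at 22 DAP. Tissues overlapped at 18 DAP, and the fitted log2 fold change over both ages was -0.46 (SE 0.58, edgeR adjusted p = 0.671), which turns to 1.05 with library sizes alone and to 1.41 with limma on log2(TPM + 1). Of the remaining genes, ppt2, FatB, fad6, fad8 and Agpat4 were not called. In TPM fad6, a plastid desaturase, had 45.4 to 92.9 in aleurone and 7.34 to 16.6 in starchy endosperm. Agpat4, an acyltransferase acting earlier in triacylglycerol assembly, had 50.6 to 85.3 in aleurone and 2.99 to 13.0 in starchy endosperm. The oleosins, which coat oil bodies, summed to 4431 to 14842 TPM in aleurone, with replicate 2 above replicate 1 at both ages, and to 4.89 to 10.8 TPM in starchy endosperm.

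Across the 8 libraries the log2(TPM + 1) values of any 2 members had a Pearson r of 0.845 to 0.995, given as a description, since the libraries fall into 2 tissues and share their depth. Among 1381 named genes with a mean of at least 5 TPM, the profile most like that of fad7 was bZIP107 (r = 0.997), that of fad2 ZAR3 (0.993), that of ACC1 vpp3 (0.996), that of dgat1-2 acp (0.991), that of wri1a WRKY109 (0.994) and that of wri1b expB2 (0.997). AGP2 and LAZ1-6 were among the 3 nearest genes of both fad7 and wri1b.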

How the data were processed

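Per the submitters' processing notes, the tools were RSEM 1.2.15, Bowtie2 2.2.3, FastQC and SAMtools, on the build B73 RefGen_v3. Neither the annotation nor the strandedness is given in the sources used here. The deposited tables hold, per the file headers, expected counts that RSEM estimates per gene, TPM and the percent of each gene's TPM per transcript. Bounds of RSEM's credibility interval on TPM are deposited as a signal column in the same tables, with no level named. The authors' deposited average TPM was read beside these. Names came from RefSeq's gene table (assembly Zm-B73-REFERENCE-NAM-5.0), in which 18908 of 39475 IDs (47.9%) matched, and no coordinates or sequences were taken.

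Expected counts were rounded and tested with edgeR 4.0.16 in R 4.3.3 (filterByExpr, TMM, 4 group means over 8 libraries, quasi-likelihood test). Calls needed a p adjusted over all tested genes (Benjamini-Hochberg) under 0.05. The 6 contrasts were tissue at each age and averaged, age in each tissue, and the interaction. SE came from the F statistic. P-values of the main test rest on a spread between replicates that was estimated over all 4 groups together. Intervals and floors of 3 counts cover counting error only. DESeq2 1.42.0 and limma 3.58.1, other scalings and filters, a replicate block and left-out libraries were the alternatives. The procedure was also run on counts simulated from a mean profile common to all libraries, with changes added to some genes. That simulation lacked the shift in composition between these tissues, so it cannot vouch for the test under that shift.

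Labels do not tie replicate numbers to plants. Replicate differences correlated in all 6 pairs of groups (Pearson r of 0.187 to 0.407 over 19058 genes). On this ground the replicate block takes the numbers to pair the libraries. The main test holds no such term, so its p-values leave any pairing out. In every group replicate 2 was also the deeper library, and the part of depth in these correlations was not tested. The 6 members and the gene lists were chosen with earlier results of these data known. Named from the oil list were the 3 genes of highest mean TPM per sublist and those called, and for likeness the 3 nearest genes per member.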

Additional observations from a re-analysis of the deposited data

How the results depend on the processing

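For 18 DAP, 2 members were called by the edgeR test as described and 6 with DESeq2, with library sizes alone, with limma on log2(TPM + 1) or log2(TPM + 0.1), or without both starchy endosperm libraries at 22 DAP, an alternative chosen after seeing the data. At that age 5 were called without a low-count filter or with only the libraries compared. For 22 DAP, where 3 were called, the number was 5 with DESeq2, library sizes alone or no filter, 6 with limma at either pseudocount and 0 with only the libraries compared. Without a filter, 1 member was called for age in starchy endosperm, beside 62 genes in all. Leaving out each library in turn changed which members were called in all contrasts other than age in aleurone, and the calls over all genes changed with them. The replicate block, with the pairing taken as above, gave 2, 2 and 5 members for tissue at 18 DAP, at 22 DAP and over both ages. Of all tested genes it called 4.24%, 3.04% and 9.39% there. It changed no call of a member other than those given beside it. No tissue difference of a member changed sign.

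The log2 change of wri1a between ages in aleurone, 0.03, was -0.030 with DESeq2, -0.0082 and -0.0080 with limma at a pseudocount of 1 and 0.1, -0.016 with the replicate block, and -0.40 to 0.65 leaving out a library. That of ACC1 between ages in starchy endosperm, -0.17, was 0.055 with upper quartile scaling and -0.55 to 0.17 leaving out a library. For tissue over both ages, library sizes alone, limma at 1 and limma at 0.1 turned FatB to 1.51, 1.65 and 1.92, fad8 to 0.15, 0.42 and 0.47, the other FAD2 gene to 1.05, 1.41 and 1.44, ppt2 to 1.36, 1.78 and 1.82, and gpt to 0.60, 0.98 and 0.99. Leaving out a library gave -0.31 to 0.23 for FatB and -0.52 to 0.13 for ppt2. These scalings shift most genes: the median log2 fold change at 18 DAP was 0.47 with TMM and 2.14 with library sizes alone. Over all genes 395 were called at 18 DAP by the edgeR test as described, 2221 by DESeq2, 9576 and 6201 by limma at 1 and 0.1, 1332 with library sizes alone, 1215 without a filter and 943 with only the libraries compared. At 22 DAP these numbers were 322, 2360, 10620, 8644, 1623, 1266 and 0, and over both ages 1694, 4493, 14600, 13202, 6999 and 3002, where the last alternative cannot be run. Starchy endosperm counts of 0 to 3 limit what can be said of fad7 and wri1b there.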

Other observations

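The authors' deposited table of average TPM lists fad7, dgat1-2 and wri1b at 0 in starchy endosperm at 18 DAP, although 1 of the 2 libraries held reads of each (means of 0.32, 0.285 and 0.095 TPM). The same table lists every gene at 0 that had 0 TPM in 1 of the 2 libraries of a group, which concerned 4807 and 5565 genes in aleurone and 6385 and 8799 in starchy endosperm (18 and 22 DAP). For dgat1-2 the authors' deposited table therefore goes from 0 at 18 DAP to 4.96 at 22 DAP in starchy endosperm.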
